A study of Mus musculus with 5 samples.

Results

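The cells described here are resident-like macrophages of the mouse heart: 2253 of the 47319 cell barcodes in 5 droplet libraries. A barcode was a member if mitochondrial transcripts made up at most 10% of its UMIs (unique molecular identifiers, each counting 1 captured transcript), it held at least 3 UMIs of C1qa, C1qb and C1qc together and at least 2 of Lyve1, Folr2, Timd4 and Cd163 together, and it held at most 1 UMI each of Cxcl9 plus Fcgr4, of the Cd3 chains and of Cd79a plus Ms4a1. The members were thus selected on the levels of these gate genes, which are given only as a description. The study asked how the immune cells of the heart differ in a mouse model of myocarditis caused by immune checkpoint inhibition. Control hearts came from 4 Ctla4+/+ Pdcd1-/- mice in 2 libraries, and disease hearts from 10 Ctla4+/- Pdcd1-/- mice in 3 libraries, so both groups lacked the checkpoint receptor PD-1 and the compared difference was the loss of 1 Ctla4 allele. Hearts were pooled, digested with enzymes and sorted for living nucleated cells (DRAQ5+ DAPI-) before 5′ single-cell RNA sequencing. The genotype labels of control library 2 and of disease libraries 4 and 5 read Pdcd2-/- or Pdcd3-/-, whereas the series' design text gives Pdcd1-/- for all 5. Libraries are the replicates (n = 2 and n = 3). Which mice went into which library, their age, and any batch of preparation were not given in the sources used here, so genotype and any such batch cannot be told apart.

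Tissue-resident macrophages of the heart are seeded in part before birth and renew themselves locally, while others are replaced by blood monocytes that carry the receptor CCR2. Resident cells sit along vessels and between cardiomyocytes, take up dying cells and debris, handle iron, and bear surface proteins such as LYVE1 (a hyaluronan receptor), FOLR2 (a folate receptor), TIMD4 (a receptor for phosphatidylserine on dying cells) and CD163 (the scavenger receptor for haemoglobin bound to haptoglobin). C1q, the recognition part of the classical complement pathway, is made by most tissue macrophages. Interferon-γ drives a different macrophage state, in which Cxcl9 (a chemokine that attracts T cells) and Fcgr4 (an activating antibody receptor) are made, and the gate limits these transcripts to 1 UMI per cell.

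After the mitochondrial filter 38337 barcodes were kept. Members numbered 719 and 331 in control libraries 1 and 2 and 425, 384 and 394 in disease libraries 3, 4 and 5, with a median depth of 6335, 5844, 5773, 4744 and 5694 UMIs. Summed over members, the libraries held between 1927067 and 4712192 UMIs. The doublet caller Scrublet marked 123 members, which were kept in the main analysis. Pairs of libraries shared between 86 and 161 barcode sequences, of which 4 were members in both. The rise of neutrophil transcripts described below sat in 26 barcodes, and results that rest on them are given with and without those barcodes.

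The label was checked against markers. The list of 9 resident macrophage markers summed to between 21579 and 25859 CPM (the UMIs of a gene, scaled to a library total of 1000000 over the cells summed), but 7 of the 9 are gate genes, so this sum does not check the label. The 6 general macrophage markers, none of them in the gate, were all detected in every library and summed to 2290 to 2851 CPM. The share of members with at least 3 UMIs of Csf1r, Fcer1g and Tyrobp, which mark myeloid cells and were not used by the gate, lay between 93.7% and 96.5%. Members also carried transcripts of other cells: the 7 fibroblast markers summed to 3106 to 4376 CPM and the 8 endothelial markers to 558 to 1289, with no marker of either list at 0. Of the fibroblast-marker UMIs, 86.7% to 88.8% lay in the 16 to 82 members of a library that held at least 10 of them. The T-cell list reached at most 66.7 CPM, and the dendritic-cell list between 7.25 and 13.5. The B-cell list summed to 300.0 to 376.0, most of it Ighm at 242 to 299. The gate limits Cd3d, Cd3e and Cd3g of the T-cell list and Cd79a and Ms4a1 of the B-cell list. Low values of those genes were thus fixed in advance and do not check the label. Ctla4 and Pdcd1, the genes altered in the mice, gave 1.04 to 9.6 and 0 to 6.06 CPM, too few to check the labels, and the parts of these genes that were deleted are not given in the sources used here.

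The gate's edges were not sharp. The 236 members with exactly 2 UMIs of the 4 resident genes had 1070 CPM of Pf4 and 637 of Cbr2, and the 403 barcodes with 1 such UMI that met every other limit had 747 and 408. These barcodes near the edge were also shallower, with library medians of 2772 to 4499 and 2468 to 4272 UMIs. At the upper limit, the 371 members with 1 UMI of Cxcl9 or Fcgr4 had 2185 CPM of Pf4 and 9951 of H2-Aa, and the 154 barcodes with 2 had 1682 and 9933. At the C1q limit only 21 members held 3 UMIs and 28 barcodes held 2, with 108 and 27.7 CPM of Pf4.

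Members differed from each other in which resident genes they showed. To compare cells at 1 depth, each was thinned to 2000 UMIs, which left out 46, 38, 21, 52 and 24 shallower members of libraries 1 to 5. Folr2 was then seen in 65.2% to 71.0% of members, Lyve1 in 47.0% to 62.3%, Cd163 in 46.5% to 59.0% and Timd4 in 20.5% to 34.3%. Without thinning the ranges were 77.6% to 84.4%, 65.6% to 77.2%, 66.9% to 77.0% and 42.6% to 53.1%. All 4 genes were seen together in 5.5% to 9.19% of the thinned members, and 2 of the 4 in 29.2% to 35.4%. Fibroblast-gated barcodes, which should lack these genes, had medians of 5513 to 6350 UMIs before thinning. Thinned to 2000 UMIs like the members, they showed Folr2 in 0.0742% to 1.53% and Timd4 in 0 to 0.206%.

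Members with a Lyve1 UMI were compared with members without one inside each library. Fcna (ficolin A, a lectin that starts the complement cascade) was higher in the Lyve1-positive members by 1.54 ± 0.18 on the log2 scale (SD over 5 libraries, with 5 CPM added to each value). F13a1, the A chain of clotting factor XIII, was higher by 1.00 ± 0.12, and Gas6, which bridges dying cells to the MERTK and AXL receptors, by 0.82 ± 0.12. Of the other gate genes, Folr2 was higher by 1.01 ± 0.22, Timd4 by 1.05 ± 0.34 and Cd163 by 0.25 ± 0.24, the last in 4 of 5 libraries. In all 5 libraries the same Lyve1-positive members had less of the MHC class II genes H2-Aa (-0.91 ± 0.28) and Cd74 (-0.80 ± 0.24), of the cytokine gene Il1b (-1.64 ± 0.60) and of the monocyte receptor Ccr2 (-1.97 ± 1.06). Igf1, a growth factor of resident macrophages, differed by 0.08 ± 0.24 in this split and was higher in 3 of 5 libraries.

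The split by Folr2 had the same signs and, unlike that by Lyve1, a higher Igf1 in all 5 libraries (0.54 ± 0.12), with Fcna at 1.89 ± 0.44, Cbr2 (carbonyl reductase 2) at 0.98 ± 0.28 and H2-Aa at -0.54 ± 0.37. Timd4 split the members less: Fcna differed by 0.96 ± 0.51, F13a1 by 0.49 ± 0.14 and H2-Aa by -0.35 ± 0.25. Cd163 hardly split them, with differences of 0.07 ± 0.16 for Folr2, 0.11 ± 0.28 for Lyve1 and -0.05 ± 0.23 for H2-Aa. Members with a Cd163 UMI had slightly more F13a1 (0.24 ± 0.06), Igf1 (0.34 ± 0.26) and Mrc1 (0.25 ± 0.14), the mannose receptor, in all 5 libraries. The gate asked for 2 UMIs of the 4 genes before thinning, so a member without Lyve1 there had to hold others. This can lower the positive relation between gate genes. After thinning, 5.12% to 9.21% of members showed none of the 4, so a member without Lyve1 in the split need not hold others. These values describe the members and carry no test.

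**Figure D1:**
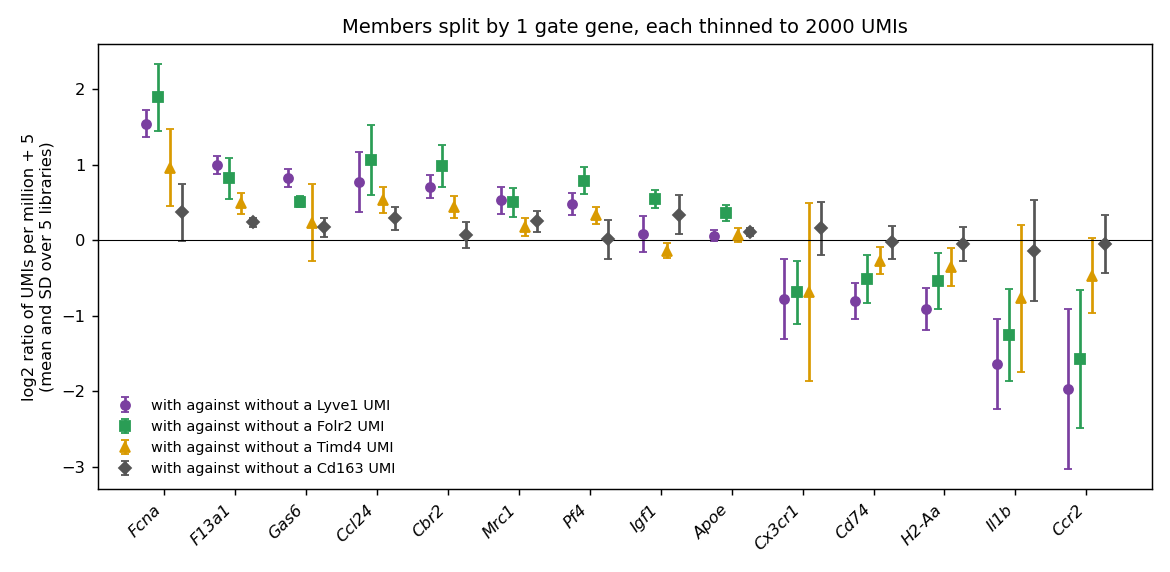
Log2 ratio (y axis) of CPM plus 5 between members with and without a UMI of 1 gate gene, for 14 other genes (x axis). Points are means and bars SDs over 5 libraries. Fcna, F13a1 and Gas6 lie above 0 and H2-Aa, Cd74, Il1b and Ccr2 below 0 in the Lyve1 and Folr2 splits, while the Cd163 points stay near 0.

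MHC class II genes, which present antigen to CD4+ T cells, varied widely between members. The class II list had a median of 91, 36, 32, 67 and 17 UMIs per 2000 in libraries 1 to 5. At most 5 such UMIs were found in 10.7%, 30.0%, 29.0%, 16.9% and 39.5% of members. Control library 1 and disease library 4 were the high ones, so the 2 groups overlapped.

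Promoter windows are shown for the 3 gate genes with a listed start site and for Fcna, which had the largest positive difference in the Lyve1 and Folr2 splits among the genes examined there. The windows run from 250 bases before to 50 bases after the start and come from RefSeq (GRCm38.p6), written 5′ to 3′ on the gene's strand. Capitals mark the letters AGGAAGT or their reverse complement, a form of the ETS core that PU.1 (Spi1), the master factor of the myeloid lineage, can bind. Both strands were searched, and the motif was chosen after these windows were read. Folr2 (chr7:101857141-101857440, minus strand, the first of 2 listed starts) held 2 matches and Fcna (chr2:25627925-25628224, minus strand) held 1. Timd4 (chr11:46810549-46810848, plus strand) and Cd163 (chr6:124304401-124304700, plus strand) held none.
Folr2: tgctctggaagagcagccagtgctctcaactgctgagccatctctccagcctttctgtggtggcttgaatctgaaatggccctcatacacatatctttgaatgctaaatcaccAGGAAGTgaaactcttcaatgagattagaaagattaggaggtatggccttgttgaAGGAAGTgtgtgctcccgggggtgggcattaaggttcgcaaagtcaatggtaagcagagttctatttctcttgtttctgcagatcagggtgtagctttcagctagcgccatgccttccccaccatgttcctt
Fcna: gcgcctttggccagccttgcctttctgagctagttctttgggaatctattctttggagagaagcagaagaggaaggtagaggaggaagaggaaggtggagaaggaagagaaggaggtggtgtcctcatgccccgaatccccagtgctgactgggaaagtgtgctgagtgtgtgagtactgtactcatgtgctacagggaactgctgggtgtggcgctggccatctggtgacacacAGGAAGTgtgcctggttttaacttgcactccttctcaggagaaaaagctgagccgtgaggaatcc
Timd4: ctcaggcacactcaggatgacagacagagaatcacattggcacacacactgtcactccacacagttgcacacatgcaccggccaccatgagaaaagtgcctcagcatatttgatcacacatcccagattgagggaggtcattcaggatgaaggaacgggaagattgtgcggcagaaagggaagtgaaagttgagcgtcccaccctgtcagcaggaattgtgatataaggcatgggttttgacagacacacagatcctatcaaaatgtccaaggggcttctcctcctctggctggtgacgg
Cd163: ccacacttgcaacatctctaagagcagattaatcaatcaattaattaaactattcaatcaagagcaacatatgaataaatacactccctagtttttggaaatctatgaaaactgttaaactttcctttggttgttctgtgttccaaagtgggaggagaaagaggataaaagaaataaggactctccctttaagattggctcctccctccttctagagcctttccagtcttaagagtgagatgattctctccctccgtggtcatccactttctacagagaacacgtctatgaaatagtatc
The motif was found in 9.35% of the 32851 windows in the table. Since the motif was chosen from these windows, its presence in them was not set against that share. A match is a run of letters and not a measured binding site.

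Beside the members lay 1829 barcodes that met every other limit of the gate, that on Cxcl9 and Fcgr4 included, but held at most 1 UMI of the resident genes. Many of these were not clearly macrophages: in control library 1 and disease library 4 only 39.5% and 31.7% of them held 3 UMIs of Csf1r, Fcer1g and Tyrobp, and their median C1q count was 4 UMIs, against 99 and 89.5 in members. In the same 2 libraries 6.69% and 7.1% of fibroblast-gated barcodes held at least 3 C1q UMIs, against 0.498% to 1.35% in the other 3. Members were therefore set beside the resident-gene-low barcodes with at least 3 of these myeloid UMIs, a choice made after the counts were seen. Because the gate separates the classes, the following differences are descriptive.

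The gene with the largest ratio outside the gate was Fcna, at 166.0 to 256.0 CPM in members and 1.9 to 15.7 in resident-gene-low myeloid barcodes (log2 ratio 4.13 ± 0.56, SD over 5 libraries). Ltc4s, leukotriene C4 synthase, followed at 3.67 ± 0.43, and the endothelin receptor Ednrb at 2.87 ± 0.90. Ccl24, an eosinophil-attracting chemokine, reached 260.0 to 465.0 CPM against 17.2 to 88.5. Cbr2, F13a1, Pf4 (platelet factor 4) and Gas6 were higher in members by 2.68 ± 0.50, 2.19 ± 0.23, 1.76 ± 0.46 and 1.66 ± 0.21. Of the 20 listed resident genes outside the gate, 18 were higher in members in all 5 libraries, with a median log2 ratio of 1.33.

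Of 13 recruited-monocyte genes, 5 were lower and 2 higher in members in all 5 libraries (median -1.09). Of 20 chemokine and cytokine genes 8 were lower and 5 higher, and of 17 lipid-associated genes 6 were lower and 4 higher. Mmp12, a macrophage elastase, stood at 2.56 to 4.51 CPM against 54.8 to 255.0 (log2 ratio -3.81 ± 0.86). Ccr2 stood at 17.5 to 38.4 against 116.0 to 224.0, and Il1b at 101.0 to 206.0 against 405.0 to 855.0. Lgals3 (galectin-3) was lower by 1.76 ± 0.52 on the log2 scale and Cd9 by 1.43 ± 0.38. Of the 11 class II genes, 9 were lower in members in all 5 libraries (median -0.89). In the dissociation stress and glucocorticoid list 13 of 20 genes were higher in members in every library, with a median of 0.35. No share over all genes was computed for this rule. The list counts of this comparison, the 18 of 20 resident genes included, therefore have no background to be set against.

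The share of members among kept barcodes was 7.75% (95% Wilson interval 7.23 to 8.32) and 5.92% (5.33 to 6.57) in the control libraries. In disease libraries 3, 4 and 5 it was 7.3%, 3.85% and 5.12%. The means were 6.84% ± 1.3 (SD, n = 2) and 5.43% ± 1.74 (SD, n = 3), and the difference of -1.41 percentage points did not exceed the spread between libraries (exact permutation test, two-sided p = 0.4, adjusted over 2 shares p = 0.6). With 10 possible splits of 5 libraries, the smallest p this design allows is 0.1. Among C1q-positive barcodes the members made up 38.4% and 62.5% in control and 62.1%, 20.2% and 42.8% in disease (exact permutation test, two-sided p = 0.6, adjusted p = 0.6). The control libraries differed from each other by more than the group means did. Intervals cover counting error only.

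Much of the low share in disease library 4 came at the Cxcl9 and Fcgr4 limit. Barcodes that met the C1q and resident-gene limits but held at least 2 UMIs of Cxcl9 and Fcgr4 numbered 146, 21, 34, 373 and 87 in libraries 1 to 5. They were 16.9%, 5.97%, 7.41%, 49.3% and 18.1% of all barcodes with the resident genes. Without the limit the shares of kept barcodes were 9.33% and 6.3% in control and 7.89%, 7.6% and 6.25% in disease. The difference then fell to -0.567 percentage points (exact permutation test, two-sided p = 0.8).

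**Figure D2:**
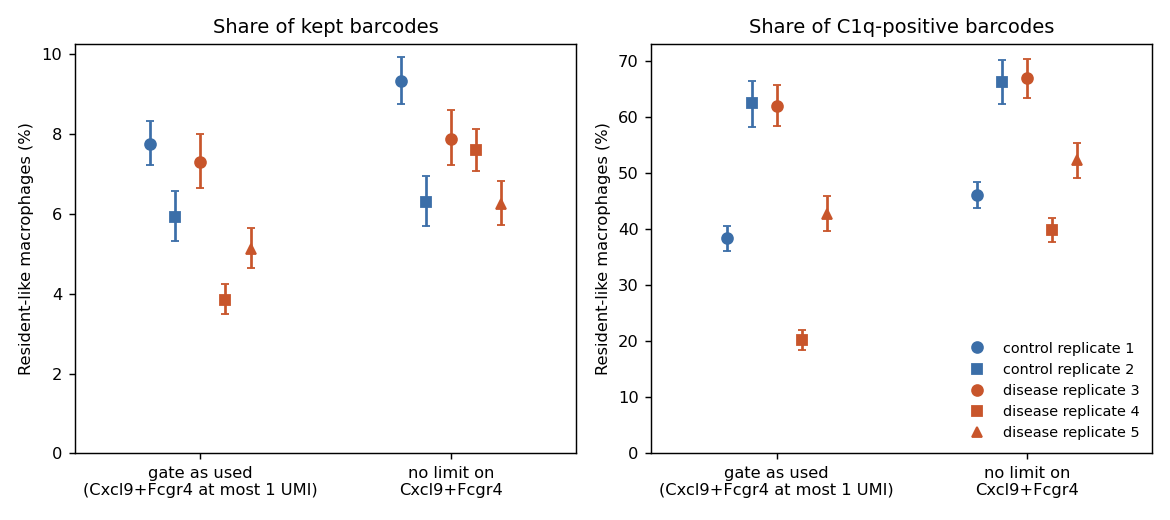
Share of resident-like macrophages (y axis, percent) among kept barcodes (left) and among C1q-positive barcodes (right), with the gate as used and without its limit on Cxcl9 plus Fcgr4. Each point is a library and each bar its 95% Wilson interval. Disease library 4 moves from 3.85% to 7.6% of kept barcodes when the limit is lifted.

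The barcodes over the limit were set beside members gene by gene, for genes chosen after the data were seen. Their median depth was higher in every library, from 7012 to 10081 UMIs. Gbp2, a guanylate-binding protein, stood at 227.0, 79.4, 316.0, 589.0 and 470.0 CPM in libraries 1 to 5, against 57.1, 41.5, 46.2, 193.0 and 34.5 in members. It was higher over the limit by 2.12 ± 1.04 on the log2 scale (SD over 5 libraries), Cd274 (PD-L1) by 1.70 ± 1.02 and the monocyte-attracting chemokine Ccl8 by 2.91 ± 1.56, each in all 5 libraries. Lyve1 was lower by 1.52 ± 0.62, F13a1 by 1.13 ± 0.48 and Gas6 by 1.31 ± 0.54, again in all 5. H2-Aa was higher by 1.00 ± 0.52. Other genes did not differ in 1 direction in every library: Gbp4 and Cxcl10 were higher in 4 of 5, Irf1 in 2 of 5 (-0.14 ± 0.23), and Timd4 was lower in 4 of 5. The rule that set the barcodes apart used Cxcl9 and Fcgr4, which are induced by the same cytokine, so these differences are descriptive.

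To compare genotypes, the UMIs of all members of a library were summed and tested across the 5 libraries with edgeR's quasi-likelihood test over 10420 genes. With Benjamini-Hochberg adjustment, 940 genes passed an adjusted p of 0.05 (9.02% of those tested), of which 46 were higher (0.441%) and 894 lower (8.58%) in disease. CPM values of tested genes are from here on scaled with edgeR's TMM factors and so differ slightly from the unscaled values above. The median log2 fold change over all genes tested was 0.01, and 51.1% of them had positive fold changes (50.3% without the Cxcl9 and Fcgr4 limit). Disease and control libraries did not overlap for 41.1% of all genes tested (18.7% higher and 22.4% lower in disease), so a gap between the groups is common here. Without control library 1, control library 2 or disease library 5 the number that passed dropped to 536, 452 and 530.

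The steepest rises were neutrophil genes. S100a8, a calcium-binding alarmin of neutrophils, gave 1.98 and 3.11 CPM in control and 526, 385 and 358 in disease (log2 fold change 7.46 ± 0.32 SE, edgeR adjusted p = 5.2e-05). S100a9, its partner, gave 4.18 and 3.62 against 631, 514 and 457 (7.05 ± 0.25, edgeR adjusted p = 3.33e-05). Retnlg, a resistin-like protein of neutrophils, gave 0.22 and 1.04 against 49.8, 140 and 42.6 (edgeR adjusted p = 0.00307, and 0.0672 without control library 1). Control and disease libraries lay far apart for all 3 genes.

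These transcripts lay in few barcodes. In disease libraries 3, 4 and 5, 10, 7 and 9 members held at least 10 UMIs of the 6 neutrophil markers, and they carried 97.7%, 97.6% and 98.3% of those UMIs. No control member held as many, and Scrublet marked none of the 26. The neutrophil markers summed to 19.7 and 21.8 CPM in control members and 1262, 1074 and 882 in disease members. Without the marker-rich members the disease values were 29.9, 27.1 and 16.0, which overlap control. Fibroblast-gated barcodes held 3.09 to 17.7. The part of these barcodes in other rises was not tested beyond the values given without them. The control libraries had 3 and 1 members with at least 10 lymphatic endothelial marker UMIs, and control library 1 had 2 with erythroid ones, 1 of which held 3337 UMIs of Hbb-bs. Ccl21a, a lymphatic chemokine, was the deepest fall by the rule for named genes (log2 fold change -5.94, edgeR adjusted p = 3.33e-05), and single members held 288 of its 439 UMIs in control library 1 and 195 of its 198 in control library 2.

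**Figure D3:**
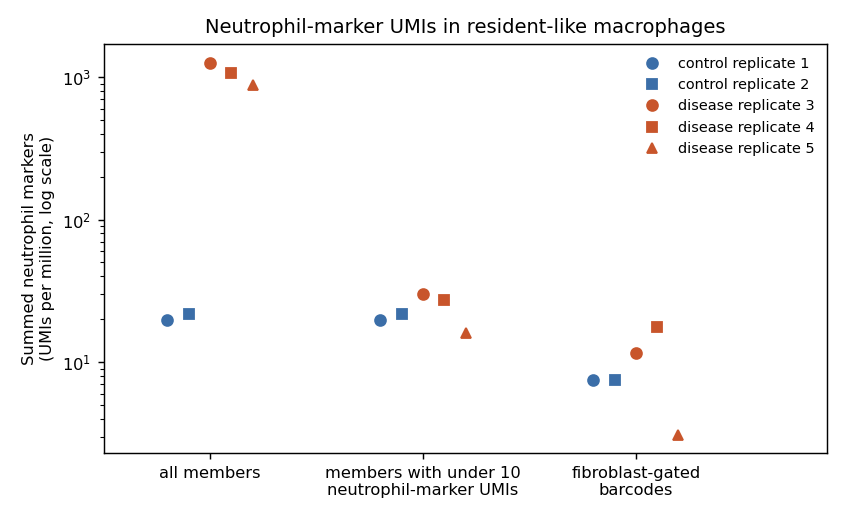
Summed CPM of 6 neutrophil markers (y axis, log scale) in all members, in members with under 10 such UMIs, and in fibroblast-gated barcodes. Each point is a library. The disease libraries stand at 882 to 1262 when all members are used and at 16.0 to 29.9 without the marker-rich members.

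With all members that held 10 or more neutrophil, lymphatic or erythroid marker UMIs left out, a choice made after seeing the data, 17 genes were higher (0.164% of 10338 tested) and 891 lower (8.62%). The number higher was then 4 without control library 1, 4 without control library 2, 38 without disease library 4 and 2 without disease library 5. With all members it was 14 and 18 without control libraries 1 and 2 and 23 without disease library 5, and 16 with a filter against free RNA. Of the 46 rises, 13 still passed without the marker-rich members and 16 were too low to test. By the rule for named genes, applied without the marker-rich members, the rises were Dbp, Nr1d1, Per1, Tppp3, Ms4a4a, Cxcl2 and Tns1. Among the 13 were Nr1d1, Dbp and Per1. Nr1d1, a repressor in the circadian loop, gave 31.5 and 25.9 CPM in control and 68.1, 46.5 and 68.8 in disease (log2 fold change 1.08 ± 0.22 SE, edgeR adjusted p = 0.0203 with all members and 0.016 without the marker-rich ones). Dbp, an activator of clock output, gave 45.8 and 25.4 against 97.4, 59.6 and 94.7 (1.20 ± 0.30, edgeR adjusted p = 0.0492 and 0.0319), and Per1, a core clock gene, 40.1 and 26.9 against 59.1, 61.7 and 61.5 (0.83 ± 0.19, edgeR adjusted p = 0.035 and 0.0397). All 3 were higher in every disease library than in either control. The hour at which hearts were taken is not given in the sources used here, so it cannot be told apart from genotype for these genes of the daily rhythm. The calls were not stable to leaving out 1 library. Nr1d1 did not pass without control library 1 or 2 or disease library 3 or 5 (edgeR adjusted p = 0.0521 to 0.167), nor did Dbp without the same 4 (0.0591 to 0.282) or Per1 without control library 2 or disease library 3 or 5 (0.0658 to 0.184). Nr1d1 and Per1 also did not pass without the Cxcl9 and Fcgr4 limit (0.0896 and 0.113), and Dbp did not with a GC trend or the Scrublet calls removed (0.0525 and 0.0589) or with at least 3 resident-gene UMIs (0.065). Without members with 10 or more UMIs of any other cell type's markers, also a choice made after seeing the data, where 11 genes were higher and 813 lower, Dbp (0.094) and Per1 (0.0523) did not pass.

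Clec4d, a C-type lectin that senses fungal and mycobacterial lipids, gave 16.3 and 9.84 CPM in control and 65.8, 80.9 and 56.8 in disease (log2 fold change 2.30 ± 0.26 SE, edgeR adjusted p = 0.00147). It passed with each library left out. Without the marker-rich members the fold change was 1.38 (edgeR adjusted p = 0.028), and that call was lost without control library 1 or 2 or disease library 5 (0.0637 to 0.182). Msrb1, a selenoprotein that repairs oxidised methionine, rose by 1.05 ± 0.14 (edgeR adjusted p = 0.00309), but by 0.39 without the marker-rich members (edgeR adjusted p = 0.156). Tnfaip2, a gene induced by TNF, rose by 1.16 ± 0.28 (edgeR adjusted p = 0.0428). Without those members its fold change was 0.98, and its call was lost (edgeR adjusted p = 0.0814). The call was also lost without disease library 4 or 5 (edgeR adjusted p = 0.0685 and 0.185) and without either control library (fold changes 0.93 and 1.36). Without the Cxcl9 and Fcgr4 limit its adjusted p in edgeR was 0.0799, with equal cell numbers 0.0569 and with a GC trend removed 0.0537.

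Gene lists were then read by role. The resident genes of the gate were described only: Lyve1 stood at 529 and 631 CPM in control members and 728, 932 and 882 in disease members, Folr2 at 890 and 816 against 1124, 933 and 1032, and Timd4 at 129 and 126 against 141, 196 and 172. Cd163 overlapped, at 426 and 611 against 604, 608 and 583. Of the 20 resident genes outside the gate, none rose and 2 fell (0.441% and 8.58% of all genes), with a median log2 fold change of 0.21 against 0.01 over all genes. For 9 of the 20 all disease libraries lay above both controls, against 18.7% of all genes tested. Among them F13a1 gave 1583 and 1728 against 2039, 2132 and 2178 (0.35 ± 0.12, edgeR adjusted p = 0.13), and Maf 447 and 463 against 549, 592 and 629 (0.38 ± 0.13, edgeR adjusted p = 0.133). Vsig4, a complement receptor of resident macrophages, had the list's highest fold change, at 21.8 and 21.2 against 81.8, 40.4 and 36.1 (1.30 ± 0.37, edgeR adjusted p = 0.076). It passed without disease library 3 or 4 and with DESeq2 (adjusted p = 0.0228) but not without the Cxcl9 and Fcgr4 limit (edgeR adjusted p = 0.3), and its log2 fold change was 0.81 without disease library 3. Igf1 overlapped, at 376 and 354 against 436, 405 and 356. Without the Cxcl9 and Fcgr4 limit the median was 0.09 and 3 of the 20 did not overlap upwards, against 17.5% of all genes.

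Among the resident genes that fell was Wwp1, a ubiquitin ligase, which gave 305 and 447 CPM in control and 170, 174 and 164 in disease (log2 fold change -1.15 ± 0.18 SE, edgeR adjusted p = 0.00597, and 0.051 without disease library 5). Its groups did not overlap. Spi1, which encodes PU.1, overlapped at 355 to 363 against 327 to 368. None of the 17 listed macrophage transcription factors passed (median -0.05).

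**Figure D4:**
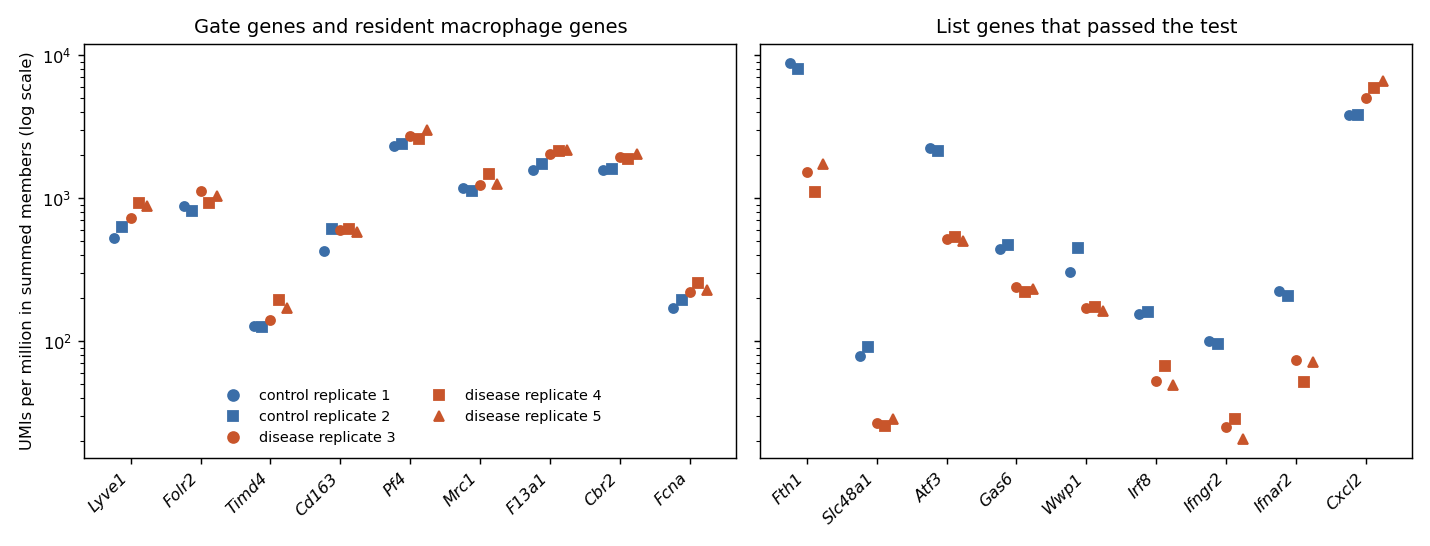
CPM in the summed members (y axis, log scale) for gate genes and resident macrophage genes (left) and for 9 list genes that passed the test (right). Each point is a library, control in blue and disease in orange. The disease points of Fth1, Atf3, Gas6, Wwp1 and the interferon receptor genes lie below both control points, and those of Cxcl2 above them.

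Among genes for taking up dying cells, the bridging ligand Gas6 passed the test. It gave 439 and 468 CPM in control and 240, 221 and 231 in disease (log2 fold change -0.98 ± 0.12 SE, edgeR adjusted p = 0.00225), and passed with each library left out. Its receptors Mertk and Axl had fold changes of 0.07 ± 0.16 and 0.06 ± 0.16. Pros1, the other bridging ligand, stood at 128 and 129 against 98.2, 77.8 and 62.8 (edgeR adjusted p = 0.0762). Of 17 tested genes of this list, 1 fell and none rose, against 8.58% and 0.441% of all genes, and the median was 0.20.

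In iron handling, 2 of 11 genes fell, against 8.58% of all genes, and 5 had positive fold changes. Fth1, the heavy chain of the iron store ferritin, gave 8851 and 7985 CPM in control and 1520, 1115 and 1748 in disease (log2 fold change -2.53 ± 0.19 SE, edgeR adjusted p = 0.000335). Ftl1, the ferritin light chain, gave 13183 and 14097 against 13400, 14417 and 16857 (0.13 ± 0.14, edgeR adjusted p = 0.652). The disease values of Fth1 were 5.76-fold lower, and those of its partner overlapped control. Fth1 has near-identical processed copies in the genome, so how reads were assigned to it is uncertain. Slc48a1, which carries heme out of the lysosome, gave 78.8 and 91.6 against 26.8, 25.8 and 28.8 (-1.64 ± 0.15, edgeR adjusted p = 0.000608). Hmox1, which breaks down heme, stood at 1289 and 1143 against 1225, 1636 and 1660 (edgeR adjusted p = 0.337), and the list's median was -0.07.

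Of 16 tested cytokine receptors, 3 fell (8.58% of all genes did), none rose and 4 had positive fold changes, with a median of -0.38. For 9 of them all disease libraries lay below both controls and for 3 above, against 22.4% and 18.7% of all genes. Ifngr2, the signalling chain of the interferon-γ receptor, gave 100 and 96.3 CPM in control and 25.3, 28.8 and 20.7 in disease (log2 fold change -1.98 ± 0.17 SE, edgeR adjusted p = 0.000518). Ifnar2, a chain of the type I interferon receptor, gave 224 and 206 against 73.6, 51.6 and 71.4 (-1.71 ± 0.18, edgeR adjusted p = 0.0011). Their partner chains did not pass, Ifngr1 with -0.37 ± 0.20 and Ifnar1 with -0.51 ± 0.17. Il13ra1 fell by 0.66 on the log2 scale (edgeR adjusted p = 0.0384), a call lost with any 1 library left out (0.0556 to 0.237), with DESeq2 (0.136), without the gate's limit (0.0814) and with a GC trend removed (0.0542). Csf1r, the receptor on which macrophage survival depends, stood at 914 and 960 against 983, 1135 and 1027 (0.16 ± 0.12, edgeR adjusted p = 0.506).

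Interferon-response genes were read with the gate in mind, since it removes barcodes with 2 or more UMIs of Cxcl9 and Fcgr4 and keeps the 371 members with 1. Of 29 tested interferon-γ response genes, 1 rose and 1 fell, against 0.441% and 8.58% of all genes, with a median of 0.20. The riser, Acod1, which makes itaconate, was at 0.66 and 0 CPM in control and 15.2, 26.3 and 18.1 in disease, was too low to test without the marker-rich members, and did not pass without the limit (edgeR adjusted p = 0.108). Irf8, a myeloid transcription factor, fell from 155 and 160 to 52.8, 67.7 and 49.5 (-1.48 ± 0.17, edgeR adjusted p = 0.00154). In the barcodes over the limit Irf8 was higher, and without the limit its fold change was -0.91 (edgeR adjusted p = 0.228). Gbp2 stood at 59.2 and 41.4 against 45.7, 194 and 34.9, so only disease library 4 was high.

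The list's median turned to -0.28 without disease library 4, with 6 of 28 genes positive. It was 0.52 without control library 1, 0.04 without control library 2 (15 of 29 positive), and 0.39 and 0.34 without disease libraries 3 and 5. Without the limit the median was 0.85 with 25 of 30 genes positive and none past the test, and 0.05 when disease library 4 was also left out. In the type I interferon list none of 19 genes passed, and the median of 0.20 turned to -0.02 without disease library 4. Unlike the interferon-γ median, it did not fall without control library 2 (0.26, 15 of 20 positive). It was 0.30 without control library 1, and 0.31 and 0.24 without disease libraries 3 and 5. For MHC class II, H2-Aa stood at 8446 and 4864 CPM in control and 5188, 7991 and 4824 in disease, so the groups overlapped, and none of 11 genes passed (median -0.06). The class II median was 0.29 without control library 1, with 11 of 11 genes positive, and -0.22 without control library 2. Without the limit all 11 had positive fold changes (median 0.64) and none passed, and without the limit and disease library 4 the median was 0.10 with 7 of 11 positive.

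Among 20 chemokine and cytokine genes, Cxcl2 rose and Cxcl14 fell, against 0.441% and 8.58% of all genes, and the median was 0.36. Cxcl2, a chemokine that draws neutrophils, gave 3816 and 3812 CPM in control and 5061, 5854 and 6644 in disease (log2 fold change 0.62 ± 0.15 SE, edgeR adjusted p = 0.0386). It also passed without the marker-rich members (0.61, edgeR adjusted p = 0.035), and its call was lost without either control library or disease library 5 (0.171 to 0.195), without the gate's limit (0.128) and with Scrublet calls removed (0.0802). Cxcl14 gave 44.9 and 25.4 against 7.07, 10.1 and 6.45 (-2.21 ± 0.31, edgeR adjusted p = 0.00396), but 51.8% of its control UMIs lay in the 3 richest members of each library. Il1b stood at 104 and 116 against 123, 206 and 154 (0.55 ± 0.22, edgeR adjusted p = 0.214), and Ccl8 at 204 and 34.7 against 194, 476 and 154.

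Of 16 growth and repair factors, 3 fell at low levels, against 8.58% of all genes, and the median was -0.27. Bmp2, a bone morphogenetic protein, gave 33.7 and 32.6 CPM in control and 13.8, 17.2 and 14.2 in disease (log2 fold change -1.15 ± 0.18 SE, edgeR adjusted p = 0.00709, and 0.0692 without control library 1). Areg, an epidermal growth factor family ligand, gave 12.5 and 15.0 against 3.72, 4.04 and 5.59 (edgeR adjusted p = 0.014, and up to 0.101 without either control library). Pdgfa gave 18.3 and 22.3 against 10.8, 8.09 and 7.74 (edgeR adjusted p = 0.0244, and up to 0.159 without control library 1 or 2 or disease library 5). Its call was also lost with DESeq2 (adjusted p = 0.0508) and with a GC trend removed (-0.85, edgeR adjusted p = 0.0744).

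No gene passed among 9 complement genes (median 0.45, 9 positive), 16 lipid-associated macrophage genes (0.26, 13 positive) and 10 cell-cycle genes (0.44, 10 positive). Of all genes tested, 9.02% passed and 51.1% had positive fold changes. Without the Cxcl9 and Fcgr4 limit 33 of all 10991 genes tested were higher. Among them were 2 of 16 lipid-associated genes, Spp1 (2.84, edgeR adjusted p = 0.0491) and Cd9, a tetraspanin (0.83, edgeR adjusted p = 0.029). With the limit their adjusted p values in edgeR were 0.062 and 0.0704. Spp1 was scarce, at 1.49 and 3.11 CPM before TMM scaling in control members and 5.26, 7.58 and 8.96 in disease members. Cd9 stood at 98.1 and 83.3 CPM against 165, 117 and 168, and it passed without disease library 4 (0.00667) and with DESeq2 (0.0382), while Spp1 passed without disease library 3 (0.0466). Of 10 recruited-monocyte genes 2 rose and none fell, against 0.441% and 8.58% of all genes. Both that rose were too low to test without the marker-rich members. One was Hp, haptoglobin, at 0.66 and 0.518 CPM in control and 17.1, 17.7 and 12.5 in disease (log2 fold change 4.58 ± 0.43 SE, edgeR adjusted p = 0.000676). Ccr2 stood at 29.5 and 38.3 CPM against 22.3, 31.8 and 17.6 (log2 fold change -0.49 ± 0.26 SE, edgeR adjusted p = 0.334). Trem2, a lipid receptor, stood at 110 and 181 against 178, 181 and 205.

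The dissociation stress and glucocorticoid list held 1 rise, Per1, and 3 falls in 20 genes (median -0.01), against 0.441% and 8.58% of all genes. Atf3, a stress-induced transcription factor, gave 2244 and 2131 CPM in control and 518, 533 and 500 in disease (log2 fold change -2.08 ± 0.11 SE, edgeR adjusted p = 9.52e-05). Jund gave 243 and 435 against 118, 99.6 and 130 (-1.54 ± 0.25, edgeR adjusted p = 0.00733), and the phosphatase gene Dusp1 2251 and 2190 against 1198, 1160 and 1399 (-0.83 ± 0.13, edgeR adjusted p = 0.00653, and 0.0532 without control library 1). Fos, induced by the same stress, stood at 3617 and 3723 against 3678, 3659 and 3650.

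**Figure D5:**
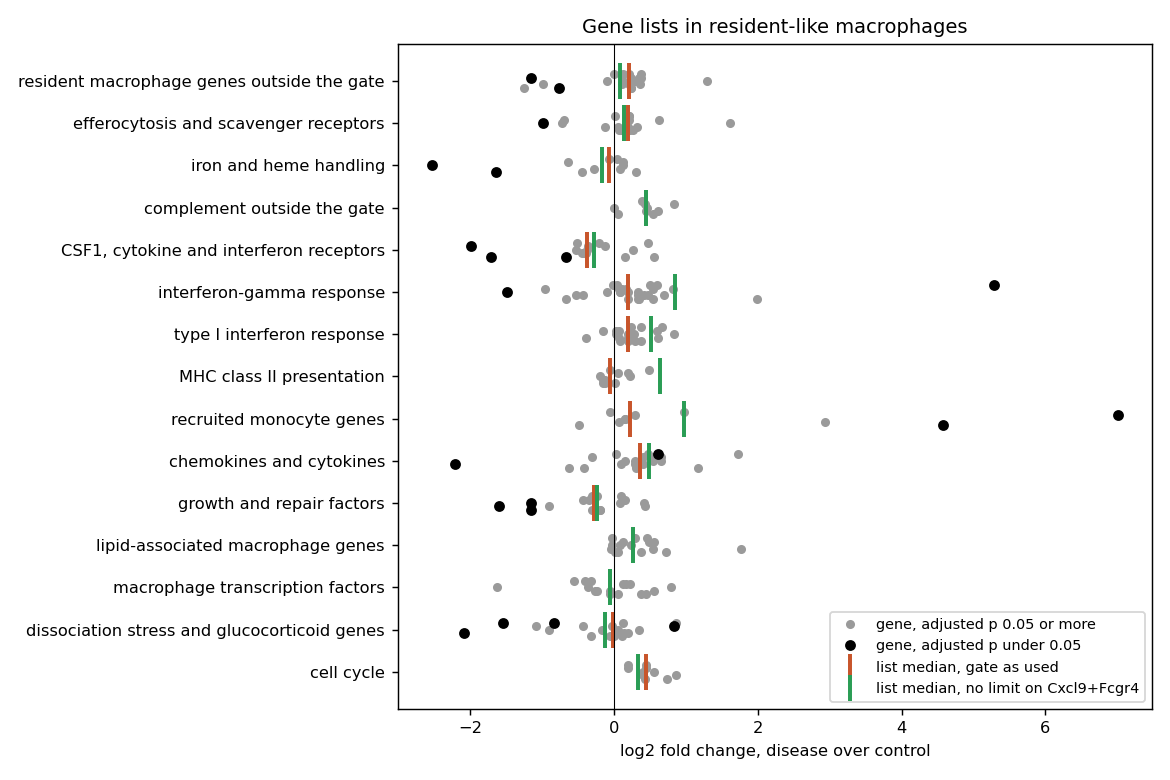
Log2 fold change, disease over control (x axis), of each tested gene of 15 lists (y axis). Black points passed an adjusted p of 0.05 in edgeR's test and grey points did not. Vertical marks are list medians with the gate as used and without its limit on Cxcl9 plus Fcgr4, which moves the MHC class II median from -0.06 to 0.64 (0.10 when disease library 4 is also left out).

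Outside the lists the deepest falls by the rule for named genes, after Ccl21a, were Rnaset2a, H2afj, Rnaset2b, Scand1, Snrpf, Cox5a and Nenf, with log2 fold changes between -4.88 and -3.75. H2afj, a histone H2A variant, gave 153 and 158 CPM in control members and 7.07, 3.03 and 5.16 in disease members (-4.88 ± 0.24 SE, edgeR adjusted p = 7.8e-05). Rnaset2a and Rnaset2b are near-identical copies, so their separate counts are uncertain. The genes that fell had a median GC content of 62.0% in the first 300 nucleotides of their transcripts, against 56.0% for genes that did not pass and 53.4% for those that rose. Across the 6548 tested genes above a set average expression, fold change and GC content had a Spearman rho of -0.276. Genes are not independent replicates. With a GC trend removed from each library 59 genes were higher and 781 lower (0.567% and 7.5%), and Gas6 fell by 0.69 on the log2 scale (edgeR adjusted p = 0.0122). The part of GC content in each fall was not tested further.

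The same genes were read in the resident-gene-low myeloid barcodes of the same libraries, which share those libraries' preparation with the members. There Fth1 had a log2 fold change of -2.41 ± 0.21 SE, Atf3 of -2.19 ± 0.17, Gas6 of -1.24 ± 0.20, Ifngr2 of -2.01 ± 0.29 and Irf8 of -1.58 ± 0.21, each past the edgeR test, as were 364 lower genes in all (5.31% of 6850 tested). Of the 894 genes that fell in members, 715 were tested there, 714 had negative fold changes and 349 passed as lower. Both classes come from the same libraries, so these counts are not independent. A test of class by genotype asked whether any gene's genotype difference was unequal in members and in resident-gene-low barcodes. None of 11266 genes passed (edgeR, lowest adjusted p = 0.227), and 205 had an unadjusted p under 0.05, which is 1.82% of the genes. With DESeq2's size factors in edgeR the numbers were 0 and 199. With the resident-gene-low class limited to barcodes with myeloid UMIs, 4 genes passed: Mmp9, Aqp1, and the mural-cell genes Myh11 and Acta2. With all genes of at least 1 count 13 passed, and against all other C1q barcodes 1 did (Ccl21a). The number of genes with an unequal genotype difference thus depended on the filter and on the class compared with.

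Shares of members with a UMI of 7 genes, and of cycling members, were compared at 2000 UMIs per cell. Ccr2 was seen in 3.57% and 4.1% of control members and 2.48%, 3.61% and 2.43% of disease members (exact permutation test, two-sided p = 0.3). The difference was -0.99 percentage points, -1.32 when thinned to 1000 UMIs and -2.43 without thinning (exact permutation p = 0.1 in both). Trem2 was seen in 14.7% and 26.6% against 26.0%, 27.7% and 25.7% (exact permutation p = 0.3), so control library 1 alone was low. Mrc1 was seen in 80.7% and 84.3% against 82.7%, 86.1% and 85.4%, and Igf1 in 48.3% and 47.1% against 49.3%, 43.1% and 40.5% (exact permutation p = 0.4 for each). Il1b was seen in 9.51% and 11.9% against 13.9%, 13.9% and 12.2% (exact permutation p = 0.2). Every disease library lay above both controls for Il1b, and its UMIs were seen in 0.148% to 0.859% of fibroblast-gated barcodes.

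Cxcl10, an interferon-induced chemokine, was seen in 9.66% and 3.41% of control and 9.16%, 13.6% and 8.65% of disease members. Fibroblast-gated barcodes showed it in 5.69%, 2.97%, 2.41%, 23.7% and 6.89% at medians of 6350, 6161, 5513, 5833 and 6062 UMIs. The share in disease library 4 lay below that of its fibroblast-gated barcodes, and whether those UMIs were free RNA or made by fibroblasts was not tested. Spp1, osteopontin, was seen in 0 of 673 and 1 of 293 control members, and in 0.541% to 1.51% of disease members. A count of 0 among 673 cells allows a share of up to 0.446% with a UMI at this depth (3 counts of the total), and before thinning 3 of the 719 members of that library held one. At least 2 UMIs of 5 cell-cycle genes were found in 0.297% and 0% of control and 0.495%, 0.904% and 0.541% of disease members (exact permutation p = 0.1, the smallest the design allows). That difference of 0.50 points was 0.22 when thinned to 1000 UMIs and 0.23 without thinning (exact permutation p = 0.7 and 0.9). Over the 8 comparisons the lowest adjusted p was 0.457. Without thinning, Ccr2 was seen in 4.31% to 8.16% of members, Trem2 in 33.8% to 50.0%, Il1b in 15.4% to 20.1%, Cxcl10 in 7.55% to 19.8%, Spp1 in 0.417% to 3.12% and cycling in 0.508% to 3.39%.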

How the data were processed

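Each library was deposited as a matrix of raw UMI counts, with Cell Ranger 3.1.0 named in the header. Cell Ranger 3 and Seurat 3 and the builds GRCh38 and mm10 are named in the submitters' processing notes, with no role. The members and the gene lists were chosen with earlier results of these data known. Counts were summed over members per library and tested with edgeR 4.0.16 (TMM scaling, quasi-likelihood test, Benjamini-Hochberg adjustment over all genes tested). Groups were taken from the genotype labels. No barcode filter other than the mitochondrial limit was added. Depth is given as summed UMIs per library, and separate libraries were the only replicates, so p-values measure the spread between these 5 libraries, which may be technical. Scrublet (scanpy 1.11.5) called doublets in each library. The fits were also run on simulated counts, and the outcome is not reported here. Named genes were the genes of 15 fixed lists and the 8 largest rises and 8 largest falls with an adjusted p under 0.05, an average of at least 5 log2 CPM, and no overlap between groups, leaving out sex-linked, antigen-receptor and unnamed genes. Each other gene named was chosen after its values were seen. Fibroblast-gated barcodes had at least 10 fibroblast-marker UMIs and at most 1 myeloid UMI. Alternatives were DESeq2 1.42.0, its size factors in edgeR, other filters and gates, thinning, equal cell numbers, GC correction and leaving out each library. Some genes of the lists are counted but not reported here by name.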

Additional observations from a re-analysis of the deposited data

How the results depend on the processing

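The share of members among kept barcodes was lower in disease under 11 of 12 alternatives, and 0.10 percentage points higher when cells were thinned to 2000 UMIs before the gate and the limit on Cxcl9 and Fcgr4 was lifted. With 1 library left out its difference ranged from -2.35 to -0.49 points, and that of the share among C1q-positive barcodes from -20.73 to 3.34, with 3.34 without control library 2 and 2.06 without disease library 4. The difference in Trem2-positive members turned to -0.16 points without control library 1, and that in Igf1-positive members to 4.90 when thinned to 1000 UMIs. The cause of these changes was not tested.

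The 940 genes that passed between genotypes became 1628 with all genes of at least 1 count, where 18069 genes were tested. They ranged from 452 to 956 with 1 library left out, from 431 to 939 with 1 disease library left out and no limit on Cxcl9 and Fcgr4, and from 412 to 984 with 1 library left out and the marker-rich members removed (526 without control library 1, 496 without disease library 5). DESeq2 called 825 genes, 45 higher and 780 lower. A difference between classes passed for 13 genes with all genes of at least 1 count, for 4 with the myeloid limit on the resident-gene-low class and for 1 (Ccl21a) against all other C1q barcodes. With any 1 library left out it passed for 0 in edgeR, with 129 to 801 genes at an unadjusted p under 0.05. Among 257 named genes, 5846 of 6058 recomputed values kept their side of the threshold, 130 lost the call and 82 gained it. No paired analysis was possible because control and disease libraries share no replicate numbers. With 2 control libraries, a rise or fall that rests on 1 of them cannot be told from genotype, and the pooling of hearts hides the spread between mice.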
